A study of Mus musculus with 2 samples.

Results

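The clustered histone genes are the rows of both matrices whose symbol starts with Hist1h, Hist2h, Hist3h or Hist4h. The rule used symbols only and no measured value. It found 67 of the 31053 genes in the matrices: 54 Hist1h genes on chromosome 13, 10 Hist2h genes on chromosome 3, 2 Hist3h genes on chromosome 11 and 1 Hist4h gene on chromosome 6. By protein, 6 encode the linker histone H1, 18 encode H2A, 18 H2B, 12 H3 and 13 H4. The cells came from digested lungs of mice aged 8 to 10 weeks, 1 week after bleomycin at 1.35 U/kg, a drug that injures the alveolar epithelium. The groups were *Pclaf* WT and *Pclaf* KO, the latter a germline deletion present in all cells of the mouse. Both received bleomycin, so no uninjured lung was measured, and the number of mice in a library was not given in the sources used here. *Pclaf* encodes a factor that binds PCNA on replicating DNA. Each genotype gave 1 single-cell library, sorted as Cd31-/Cd45-/Epcam+ cells and made with a 3′ kit that copies RNA from its poly(A) tail and counts each captured molecule by a unique molecular identifier (UMI). No group has a replicate, so nothing below is a test of genotype: all intervals are exact 95% intervals for counts, and they cover counting error only.

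Histones are the proteins that DNA winds around. A cell that copies its genome needs a matching supply of new histones, and the clustered genes provide it: their transcription is switched on in S phase at histone locus bodies, where NPAT sits. Their mRNAs are unusual in having no introns and no poly(A) tail. They end a few bases after a short stem-loop, which SLBP binds and behind which the U7 particle with LSM10 and LSM11 and the CPSF2, CPSF3 and symplekin cleavage factors cut. A part of the family can also be cleaved further downstream and polyadenylated, and such transcripts have been described in differentiated cells that no longer divide. A 3′ poly(A) kit reads only molecules that carry an A stretch, so it sees the family through an incomplete window.

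The stem-loop was searched for in the annotated transcripts as a 6-base stem that starts with GG, a 4-base loop and the matching stem after the stop codon. It was found in 46 of the 67 members, in 8 forms, and in 0.625% of 34865 other protein-coding transcripts that have 200 bases after the stop codon. The most frequent form, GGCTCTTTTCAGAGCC, was in 26 members, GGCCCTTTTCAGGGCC in 7 and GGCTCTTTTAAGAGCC in 6. Of the 21 members without a match, 15 have an annotated transcript that ends within 2 bases of the stop codon and so could not show one. The lines that follow show it, in capitals with flanking bases in lower case, for 8 of the members on which the results turn (GRCm38, 5′ to 3′ on the strand of the gene).
*Hist1h2ap*: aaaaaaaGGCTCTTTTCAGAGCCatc
*Hist1h2ae*: aaacaaaGGCTCTTTTCAGAGCCattcact
*Hist1h3c*: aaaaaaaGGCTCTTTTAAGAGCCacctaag
*Hist1h4d*: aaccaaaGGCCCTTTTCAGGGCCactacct
*Hist1h4h*: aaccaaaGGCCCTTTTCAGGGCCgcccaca
*Hist1h1e*: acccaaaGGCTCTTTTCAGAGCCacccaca
*Hist1h1c*: tccaaaaGGCTCTTTTCAGAGCCaccactc
*Hist3h2a*: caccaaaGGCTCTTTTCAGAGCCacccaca
They lie at chr13:21833026-21833051, chr13:23570661-23570690, chr13:23745040-23745069, chr13:23581943-23581972, chr13:23531451-23531480, chr13:23621775-23621804, chr13:23739505-23739534 and chr11:58955165-58955194 in that order. All 8 have the arm GGCTCT or GGCCCT before the loop. What follows the loop differs: the annotated transcript of *Hist1h2ap* stops 3 bases after it and that of *Hist1h4h* 46 bases after it, whereas *Hist1h4d* goes on for 770 bases, *Hist1h1c* for 840, *Hist1h1e* for 1153 and *Hist3h2a* for 1643. *Hist1h2bc*, the member with the most UMIs, has a spliced annotated transcript of 1156 bases over chr13:23684199-23692908 and no stem-loop match in the 742 bases after its stop codon.

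Promoters were read from 250 bases before to 50 bases after the start for the 62 members with an entry in the RefSeq table (GRCm38.p6). CCAAT, on either strand, was in 85.5% of them against 37.4% of all 32851 promoters of that length in the table. All matched H1, H2A, H2B and H3 promoters held it and 3 of the 12 matched H4 promoters did. TATAAA was in 56.5% against 13.6%. ATTTGCAT, the octamer long known from H2B promoters, was in 14 of the 62 (22.6%), 7 of H2A and 7 of H2B, against 1.74% of all. Both strands were searched, and none of the 3 motifs contains another. The promoters of members that start close together on opposite strands overlap, so 1 match can count for both. *Hist1h2ae* and *Hist1h2bg*, an H2A and an H2B gene, are such a case for the octamer. A pair of promoters is shown with CCAAT or its complement ATTGG in capitals. Among members with an entry, their genes had the most UMIs in cycling and in non-cycling cells: *Hist1h2ap* (minus strand, chr13:21833426-21833725) and *Hist1h1c* (plus strand, chr13:23738557-23738856).
*Hist1h2ap*: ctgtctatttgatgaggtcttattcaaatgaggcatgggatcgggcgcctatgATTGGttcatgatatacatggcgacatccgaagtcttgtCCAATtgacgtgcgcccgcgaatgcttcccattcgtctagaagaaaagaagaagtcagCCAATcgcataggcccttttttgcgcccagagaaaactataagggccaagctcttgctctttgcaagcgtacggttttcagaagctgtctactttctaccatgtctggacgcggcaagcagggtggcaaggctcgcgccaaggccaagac
*Hist1h1c*: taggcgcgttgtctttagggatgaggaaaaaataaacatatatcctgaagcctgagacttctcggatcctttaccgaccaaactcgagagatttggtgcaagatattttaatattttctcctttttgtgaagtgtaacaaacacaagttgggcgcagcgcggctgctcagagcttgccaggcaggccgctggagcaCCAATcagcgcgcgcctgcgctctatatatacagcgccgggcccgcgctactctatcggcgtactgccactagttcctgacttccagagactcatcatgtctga
Neither holds TATAAA or the octamer. Among the members, 24 have a divergent partner whose start lies within 500 bases, including *Hist1h2ae* with *Hist1h2bg* at 176 bases and *Hist1h2ap* with *Hist1h2br* at 236 bases.

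The composition of the 2 libraries stood apart from their labels, and this touches every comparison between them. After filters on genes and mitochondrial UMIs, 30187 WT and 15637 KO cells were kept, with medians of 2127 and 5957 UMIs per cell. Clusters named from lineage markers put 70.6% of KO cells but 3.94% of WT cells in the epithelial lineage. WT cells were 40.9% immune, 21.4% endothelial and 13.1% mesenchymal, although the sort was set against immune and endothelial cells. KO cells were 3.73% immune and 18.2% mesenchymal. No lineage was named for 6133 WT cells (20.3%) and 588 KO cells (3.76%). These cells are in the values given for a whole library but in no lineage. The summed markers of each of these lineages were highest in their own lineage, which is no independent check, since the same lists named the clusters. KO cells of the other lineages also carried epithelial marker UMIs, 5520 CPM (UMIs of a gene or list for each 1000000 UMIs of the class) in immune cells against 1015 in WT, 8153 against 2457 in mesenchymal and 4397 against 993 in endothelial cells. The libraries share 163 barcodes, 138 of them kept. *Pclaf* itself was at 374 CPM in cycling WT cells and at 111 CPM in cycling KO cells, so the KO library holds reads assigned to the deleted gene, and the label was taken as given. A cell was called cycling with UMIs of at least 4 of 90 cell cycle genes, none of them a histone gene or *Pclaf*, making up at least 0.2% of its UMIs. This gate took 1684 WT cells (5.58%) and 488 KO cells (3.12%). By lineage, 993 immune, 207 endothelial and 105 mesenchymal WT cells and 379 epithelial KO cells were cycling, and these 4 groups carry the comparison with non-cycling cells. Only 35 epithelial WT cells and 41 immune, 14 endothelial and 29 mesenchymal KO cells were cycling.

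Most of the family was seen. Of the 67 members, 65 had at least 1 UMI in kept cells, 63 at least 10, 55 at least 100 and 17 at least 1000. The 2 with none, named after their values were seen, were *Hist1h2aa* and *Hist1h2ba*. The family held 58514 UMIs in WT (612 CPM) and 58347 in KO (572 CPM). These UMIs were unevenly divided, with 77.3% on 10 members. *Hist1h2bc*, an H2B gene, had 32675 UMIs, which is 28.0% of all. The linker histone genes *Hist1h1c* and *Hist1h1e* had 13333 (11.4%) and 10816 (9.26%). Next came the H4 gene *Hist1h4d* with 7550, the H2A genes *Hist1h2ap*, *Hist1h2ae* and *Hist3h2a* with 5701, 5045 and 4728, the H4 gene *Hist1h4h* with 4143, *Hist1h1b* with 3442 and *Hist1h2be* with 2892. H3 was seen least: its 12 members had 5.20% of the UMIs, led by *Hist1h3e* with 1591 and *Hist1h3c* with 1208. H2B had 34.5%, H1 25.4%, H2A 18.7% and H4 16.3%. UMIs of different members are not levels that can be ranked, since members differ in how often the kit can prime on them, so what follows compares each member with itself across cells.

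How many UMIs a member gave went with its annotated 3′ end. The 23 members whose annotated transcript continues for 100 bases or more after the stem-loop had a median of 725 UMIs, and the 23 that stop sooner had a median of 221. A poly(A) signal AATAAA lay in the last 50 bases of 15 of the 67 members, and ATTAAA alone in 2 more. The shares were 54.0% and 12.6% in 42783 other protein-coding transcripts with at least 50 bases after the stop codon. Members were counted without that limit, and 15 of them end within 2 bases of the stop codon, so the sets are unlike. The median was 551 UMIs in members with AATAAA and 382 in members without it. The rule did not use these features, but the counts carry an uncertainty. In 32 members at least 50% of the 50-base windows of the last 300 bases recur in another member, and those 32 had a median of 222 UMIs against 736 in the 22 members with no shared window. Most members that stop within 100 bases of the stem-loop are among those 32. The split by the stem-loop and the split by shared windows cannot be told apart. *Hist1h2ap* shares all of its windows, among others with *Hist1h2ao* (chosen after its values were seen), *Hist1h3e* shares all with *Hist1h3f* (likewise), *Hist1h4h* shares 63.7%, *Hist1h3c* 35.5% and *Hist1h2ae* 21.9%. *Hist1h1e* (chr13:23620629-23622558) lies on the same strand partly within the span annotated to *Hist1h2be* (chr13:23583670-23621124). The counts of all genes named in these last sentences are therefore uncertain as counts of a single gene.

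Cycling cells had 4.70 times the histone UMIs of non-cycling cells in WT, 2153 against 458 CPM (log2 ratio 2.23, 95% interval 2.21 to 2.26). In KO the factor was 5.14, 2543 against 494 CPM (2.36, 2.33 to 2.39). Of the members with at least 20 UMIs over the compared cells, 52 of 61 in WT were at least 2-fold higher in cycling cells, where 5.86% of all genes were, and 49 of 59 in KO, where 9.0% of all genes were. The median log2 ratio was 2.87 over the WT members and 3.50 over the KO members, against -0.18 and 0.00 over all genes tested. Of all genes tested, 3370 of 17460 were at least 2-fold lower in cycling WT cells. Among the members 2 were, the H3 genes *Hist2h3c2* (1.04 against 3.17 CPM, -1.61) and *Hist2h3c1* (1.5 against 3.53 CPM, -1.24). In KO, where 1838 of 17724 genes were 2-fold lower, no member was, and these 2 stood at 0.19 and 0.04.

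The 5 histone types did not move alike. H2A was 12.1-fold higher in cycling WT cells (787 against 64.9 CPM) and 19.9-fold higher in cycling KO cells (1059 against 53.2). H3 was 11.6-fold and 16.1-fold higher, from 20.4 and 14 CPM. H1 was 4.74-fold and 5.24-fold higher, and H4 3.85-fold and 3.42-fold. H2B was the least different at 1.53-fold in WT (276 against 180 CPM) and 1.5-fold in KO (322 against 215). The type mix changed accordingly: H2B made up 39.2% of histone UMIs in non-cycling WT cells and 12.8% in cycling ones, and H2A 14.2% and 36.6%. In KO H2B went from 43.4% to 12.6% and H2A from 10.8% to 41.7%, while H1 stayed at 23.3% and 23.7%.

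**Figure D1:**
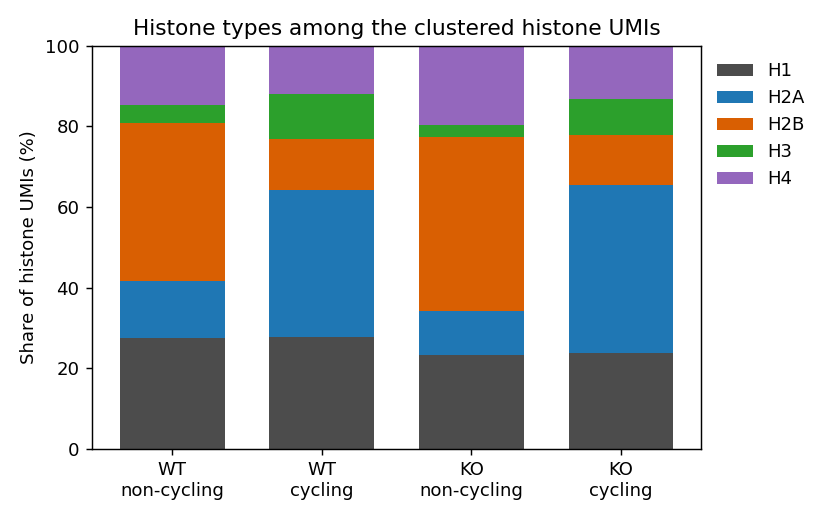
Share of histone UMIs (percent) of each histone type in non-cycling and cycling cells of the WT and KO libraries. H2B falls from 39.2% to 12.8% in WT and from 43.4% to 12.6% in KO, and H2A takes up 36.6% and 41.7% in cycling cells.

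Almost all of the H2B exception was 1 gene. *Hist1h2bc* was at 103 CPM in cycling and 146 CPM in non-cycling WT cells (log2 ratio -0.51, -0.61 to -0.41), and at 142 and 189 CPM in KO (-0.42, -0.54 to -0.29). Without it the H2B sum was 5.17-fold higher in cycling WT cells (173 against 33.5 CPM) and 6.99-fold in KO (180 against 25.7 CPM), and the sum of the whole family 6.58-fold and 7.86-fold. This recalculation was chosen after the values were seen. Of the tested H2B members, 13 of 16 were at least 2-fold higher in cycling cells in WT and 13 of 16 in KO.

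The members fell into steep, moderate and flat ones. The linker histone gene *Hist1h1b* was at 266 CPM in cycling and 5.84 in non-cycling WT cells (5.51, 5.37 to 5.65), and at 135 and 1.01 CPM in KO (7.06, 6.75 to 7.39). For the H3 gene *Hist1h3c* the values were 85.8 and 1.24 CPM in WT (6.11) and 76.9 and 0.591 in KO (7.02). The H2A genes were also steep: *Hist1h2ae* stood at 316 against 10.4 CPM in WT (4.92) and 248 against 4.4 in KO (5.81), and *Hist1h2ap* at 248 against 8.45 in WT (4.88) and 584 against 5.61 in KO (6.70). *Hist1h3e* was 3.76 log2 units higher in WT and 3.62 in KO. In the middle, *Hist1h1e* was at 167 against 39.2 CPM in WT (2.09) and 272 against 50 in KO (2.45), and *Hist1h4d* at 122 against 20.5 (2.57) and 193 against 40.4 (2.25). *Hist1h4h* was 1.60 higher in WT and 0.60 in KO, and *Hist1h2be* 1.21 and 1.46. Among the flat ones, *Hist1h1c* was at 90.7 against 72.8 CPM in WT (0.32, 0.21 to 0.43) and 105 against 59.2 in KO (0.83), and *Hist3h2a* at 17.5 against 26.9 in WT (-0.62, -0.87 to -0.38) and 20.6 against 21.9 in KO (-0.09, -0.43 to 0.23). Within H1, then, *Hist1h1b*, *Hist1h1e* and *Hist1h1c* spanned 5.51 to 0.32 in the same WT cells.

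**Figure D2:**
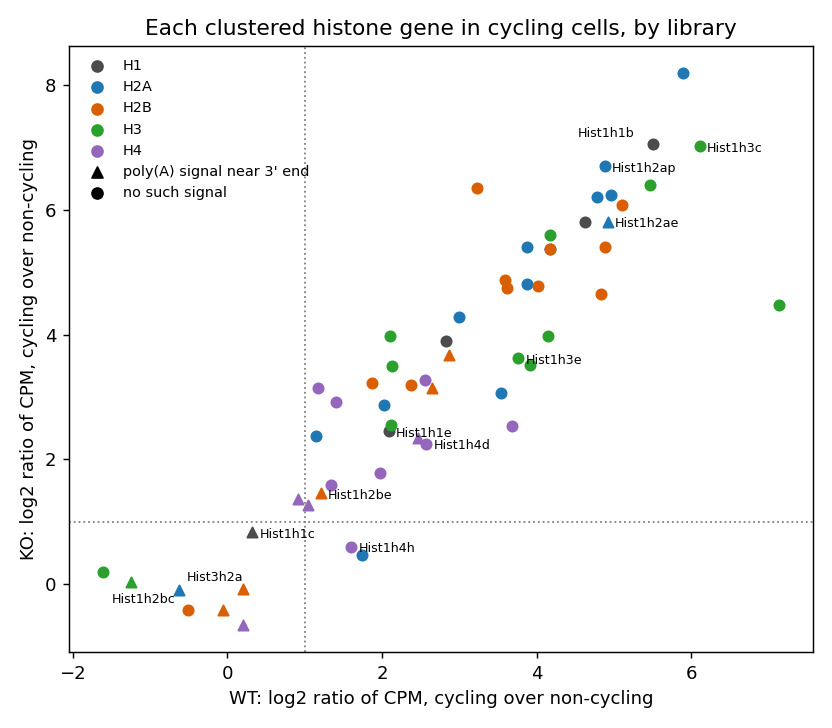
Log2 ratio of CPM, cycling over non-cycling cells, of each member with at least 20 UMIs over the compared cells in each library. WT is on the horizontal and KO on the vertical axis, coloured by histone type, with dotted lines at 2-fold. Triangles mark AATAAA near the annotated 3′ end, and members with ATTAAA alone are drawn as circles. *Hist1h1b* (5.51 and 7.06) and *Hist1h3c* lie at the upper right, and *Hist1h2bc* (-0.51 and -0.42), *Hist1h1c* and *Hist3h2a* at the lower left.

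The steep and the flat members differed at the annotated 3′ end. Of the members with AATAAA near the end, 6 of 13 tested in WT and 7 of 13 in KO were at least 2-fold higher in cycling cells, with a median log2 ratio of 0.91 and 1.27. Among members with no AATAAA there, 46 of 48 in WT and 42 of 46 in KO were, with medians of 3.65 and 3.98. The members counted as without AATAAA, tested or not, include the 15 annotated to end within 2 bases of the stop codon, *Hist1h1b* among them. Their annotation leaves no room for a signal, so this split partly follows missing annotation. The next split, by the stem-loop, leaves those 15 out. Members whose transcript stops within 100 bases of the stem-loop had medians of 3.59 and 4.38, and those that run on for longer 1.60 and 2.02. The AATAAA members held 31.7% of histone UMIs in non-cycling WT cells and 22.8% in cycling ones, and 24.0% and 17.9% in KO. Members with neither AATAAA nor ATTAAA held most, 62.8% and 74.0% in WT and 68.6% and 79.5% in KO. *Hist1h2bc*, which is 1 of these, held 31.9% of the non-cycling UMIs in WT and 38.2% in KO. AATAAA did not sort all genes: *Hist1h2ae* carries AATAAA and was steep, and *Hist1h2bc* carries neither AATAAA nor a stem-loop match and was flat. These are annotated ends, and where the captured molecules ended was not measured.

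The share of cells with a UMI differed in the same direction. *Hist1h2ap* had a UMI in 33.1% of cycling WT cells (median 3508 UMIs) and 2.39% of non-cycling ones (2093 UMIs), and in 37.7% and 2.75% of KO cells (7258 and 5919 UMIs). In non-cycling ciliated-like cells, which do not divide, it was in 0.725% of WT and 1.44% of KO cells (5611 and 7166 UMIs), and in non-cycling neutrophil-like cells in 2.30% and 2.86% (1622 and 1783 UMIs). The WT ciliated-like share is 1 of 138 cells and the KO neutrophil-like share 1 of 35. Free RNA gives UMIs in cells that do not express a gene. Over a whole library the non-cycling shares of *Hist1h2ap* lay near those of neutrophil-like cells and above those of ciliated-like cells, and were not read as expression. Single classes differed: its share was 6.36% in WT and 32.2% in KO non-cycling B-like cells, 5.27% and 21.4% (14 KO cells) in NK-like and 2.54% and 4.42% in T-like cells. The source of these UMIs was not tested. *Hist1h2bc* by contrast had a UMI in 65.9% and 81.4% of those ciliated-like cells and in 28.4% and 34.6% of cycling cells. With each cell thinned to 1000 UMIs, any member was seen in 57.3% of cycling and 33.5% of non-cycling WT cells and in 55.7% and 33.3% of KO cells. The thinning left out 327 and 7114 WT cells and 32 and 1102 KO cells that were shallower. Unthinned, the shares were 78.1% and 55.4% in WT and 81.6% and 76.7% in KO.

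Each lineage with enough cycling cells showed the difference. In WT immune cells the sum was 2430 against 523 CPM (log2 ratio 2.22, 2.19 to 2.25), with 47 of 61 members at least 2-fold higher where 6.30% of all genes were. At least 2-fold lower was 1 member, *Hist2h3c1* (-1.11), where 1490 of 14661 genes were. In WT endothelial cells the sum was 1471 against 342 CPM (2.11, 2.02 to 2.20), with 25 of 32 members higher where 7.81% of genes were. WT mesenchymal cells had 1943 against 374 CPM (2.38), with 19 of 26 members against 9.49% of genes. KO epithelial cells had 2217 against 508 CPM (2.12, 2.09 to 2.16), with 48 of 58 members against 9.13% of genes. With the limits on genes read as limits on UMIs, these counts of higher members fell to 27 in WT immune, 13 in WT endothelial, 9 in WT mesenchymal and 19 in KO epithelial cells. H2A was the type with the highest ratio in KO epithelial cells (16.9-fold, H3 14.9-fold) and in WT immune cells (12.1-fold, H3 11.7-fold), and H3 in WT endothelial cells (11.1-fold, H2A 8.64-fold). H2B had the lowest in all 3, 1.33-fold, 1.59-fold and 1.5-fold. In the small groups the ratios were 0.72 in WT epithelial cells (853 against 519 CPM, 165 UMIs), 3.00 in KO immune cells (5276 against 660), 3.43 in KO endothelial cells (5217 against 485) and 2.80 in KO mesenchymal cells (2715 against 389). Fewer cycling cells that copy DNA and less histone RNA in each of them cannot be told apart in such sums.

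**Figure D3:**
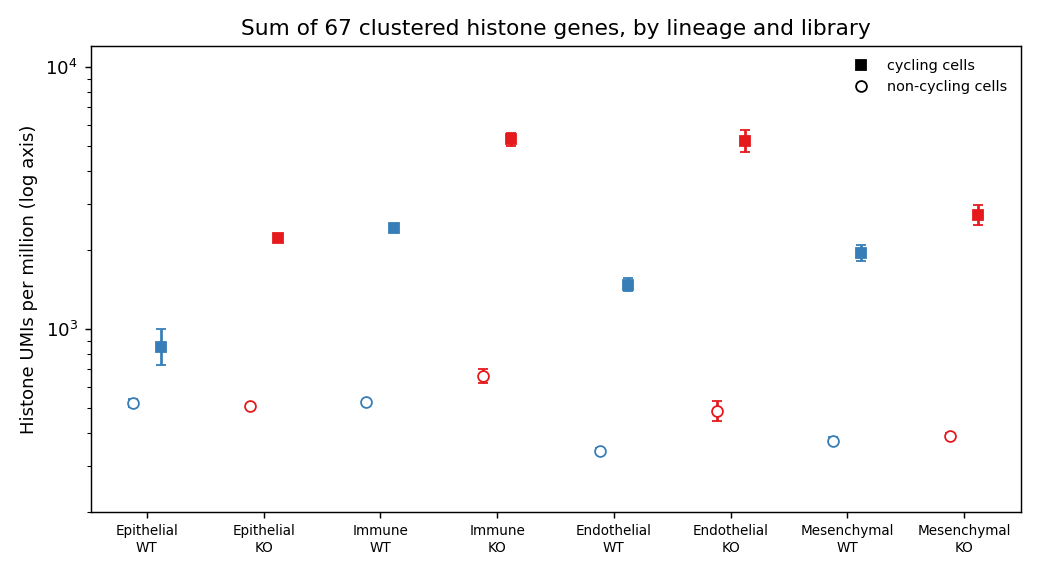
Sum of all clustered histone UMIs (CPM, log axis) in non-cycling and cycling cells of each lineage and library, with 95% counting intervals, WT in blue and KO in red. Cycling cells lie above non-cycling cells in all 8 pairs, from 853 against 519 CPM in WT epithelial cells to 5217 against 485 in KO endothelial cells, values of which 1 cell holds 41.8% and 42.8% of the cycling UMIs.

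Of the members named by their UMIs, 4 steep ones are followed over the 4 groups, and some members outside that rule had higher ratios. *Hist1h1b* was at 316 against 8.18 CPM in WT immune cells (5.27), 149 against 2.45 in WT endothelial cells (5.93), 170 against 3.19 in WT mesenchymal cells (5.73) and 96.1 against 0.827 in KO epithelial cells (6.86). *Hist1h3c* ranged from 5.77 to 6.93 over these 4 groups, *Hist1h2ap* from 4.51 to 6.72 and *Hist1h2ae* from 4.79 to 5.53. *Hist1h2bc* was lower in cycling WT immune cells (96.0 against 144 CPM, -0.59) and KO epithelial cells (130 against 196, -0.59), and its intervals included 0 in WT endothelial (-0.33, -0.73 to 0.04) and mesenchymal cells (-0.01, -0.37 to 0.34). In WT immune cells its direction was lost (0.03) when the limits on genes were read as limits on UMIs. *Hist1h1c* varied more between lineages, from 93.8 against 91.8 CPM in WT immune cells (0.03, -0.10 to 0.16) to 118 against 52.0 in WT mesenchymal cells (1.18, 0.73 to 1.61). *Hist3h2a* was lower in cycling WT immune cells only (12.5 against 23.9 CPM, -0.94, -1.30 to -0.59), with intervals that included 0 in the other 3 groups. *Hist1h2be* was 2.25 higher in WT mesenchymal cells and -0.04 in WT endothelial cells (-0.81 to 0.64).

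Within cycling cells the histone UMIs sat in few cells. In KO epithelial cells the 30 highest of 379 cycling cells held 50% of the sum, and the median cell had 581 CPM where the 90th percentile had 7103. In WT immune cells the 98 highest of 993 held 50%, with a median of 1167 and a 90th percentile of 5809 CPM. The smaller groups rested on single cells: 1 of the 35 cycling WT epithelial cells held 41.8% of their histone UMIs, 1 of 14 KO endothelial cells 42.8%, 1 of 29 KO mesenchymal cells 26.8% and 1 of 41 KO immune cells 18.2%. Without the highest cell of each class, a recalculation chosen after the values were seen, the WT epithelial cells had 542 against 456 CPM, and the interval of their log2 ratio then included 0 (0.25, -0.06 to 0.54). The ratio was 2.90 in KO endothelial, 2.45 in KO mesenchymal and 2.90 in KO immune cells. Counting intervals do not cover this spread between cells.

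For each cycling cell, its S-phase and G2/M gate UMIs were each divided by that list's total over the cycling cells of its library. The larger share set the side, so S-leaning is relative to the library and is no call of S phase. Histone sums were lower in the S-leaning cells: 1585 against 3083 CPM in KO epithelial cells (211 and 168 cells, log2 ratio -0.96, -1.03 to -0.89), 1958 against 2901 in WT immune cells (499 and 494 cells, -0.57, -0.62 to -0.52) and 724 against 2600 in WT endothelial cells (130 and 77 cells, -1.85, -2.03 to -1.67). The direction rests on the gate. With the gate at 0.4% of UMIs the ratio was -0.02 in KO epithelial and in WT immune cells, and -1.19 in WT endothelial cells. Of the tested members, 19 of 40 were at least 2-fold lower in S-leaning KO epithelial cells where 8.52% of all genes were, 9 of 54 in WT immune cells (2.71% of genes) and 14 of 15 in WT endothelial cells (6.60%). *Hist1h2bc* had the largest difference among the 12 leading members in KO epithelial cells, 66.3 against 216 CPM (-1.71, -2.02 to -1.40), and *Hist1h3c* the smallest, 61.9 against 89.3 (-0.53, -0.91 to -0.15). *Hist1h4a* (1.02, 0.07 to 2.05) in KO epithelial cells and *Hist1h3a* (1.00, 0.30 to 1.74) in WT immune cells went the other way. In S-leaning KO epithelial cells 656 of 10130 genes were at least 2-fold higher. Of the processing genes 3 of 11 tested were, *Slbp*, *Casp8ap2* and *Lsm11*, and of the chaperone genes 2 of 11, *Nasp* and *Chaf1b*. The chaperone gene *Daxx* was at least 2-fold lower there. So were 7 of 10 tested variant histone genes, among them *H2afz*, *H2afx* and *Cenpa*.

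Genes that process, carry or vary histones were read from a list of 35, of which 34 are in the matrices: 12 for the 3′ end of histone mRNA, 11 chaperones and 11 variant histones outside the clusters. In WT immune cells 14 of the 34 were at least 2-fold higher in cycling cells, where 6.30% of all genes were, and in KO epithelial cells 17, where 9.13% were. None was 2-fold lower in either, where 1490 of 14661 and 1288 of 16356 genes were. *Slbp*, whose protein binds the stem-loop, was at 117 against 41.5 CPM in WT immune cells (1.5) and 101 against 27.4 in KO epithelial cells (1.89). *Npat*, the activator at the histone locus, was 0.75 and 1.14 higher, and *Lsm11* 0.78 and 1.10. *Eri1*, an exonuclease that trims histone mRNA ends, was 1.06 and 1.72 higher. The general cleavage factors *Cpsf3* (-0.15 and 0.25) and *Sympk* (0.02 and 0.15) moved little. Of the chaperones, *Asf1b*, which hands H3 and H4 to assembly factors, was at 79.4 against 3.14 CPM (4.66) and 49.6 against 1.10 (5.49), while its paralog *Asf1a* was 0.69 and 0.65 higher. *Chaf1a*, a subunit of the assembly complex at the replication fork, was 3.68 and 2.83 higher, and *Hira* and *Daxx*, which deposit H3.3 outside replication, were -0.01 and -0.45 in WT immune cells and 0.47 and 0.27 in KO epithelial cells. Among the variants *H2afz* was at 2400 against 563 CPM (2.09) and 1804 against 276 (2.71), *H2afx* 3.37 and 3.72 higher and the centromeric H3 gene *Cenpa* 2.58 and 5.97. The H3.3 genes *H3f3a* (0.29 and 0.80) and *H3f3b* (0.37 and 0.23) and *H2afj* (-0.06 and -0.18) stayed within 2-fold.

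Non-cycling epithelial cells were not alike in histone UMIs. Clusters were named from fixed markers, so these classes are rebuilt and not the authors' own. Krt8-like cells, the transitional state between AT2 and AT1 cells, had 1543 CPM in WT (151 cells, 1460 to 1631) and 1782 in KO (727 cells, 1745 to 1820). AT1-like cells, the flat gas-exchange cells, had 947 (39 cells) and 1108 (212 cells), and ciliated-like cells 600 (138 cells) and 820 (1178 cells). AT2-like cells, which make surfactant, had 249 (557 cells, 230 to 268) and 313 (6603 cells, 308 to 318), club-like cells 175 and 302, and goblet-like cells 220 and 231. The intervals of the 3 higher classes did not overlap those of the 3 lower ones in either library. A single WT Krt8-like cell held 372 histone UMIs, 29.3% of its class. Without the highest cell of each class, the Krt8-like sum was 1106 CPM in WT and 1712 in KO, and in both libraries the classes kept the order Krt8-like, AT1-like, ciliated-like and AT2-like, with club-like and goblet-like cells below.

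*Hist1h2bc* made the largest part of this difference. It was at 831 CPM in WT and 704 in KO Krt8-like cells, 539 and 668 in AT1-like cells and 324 and 416 in ciliated-like cells, against 91.0 and 88.4 in AT2-like and 66.1 and 129 in club-like cells. In WT 333 of its 683 UMIs in Krt8-like cells came from that 1 cell, and without the highest cell the levels were 432 and 692 CPM. By the median cell, it was at 264 and 391 CPM in Krt8-like, 361 and 573 in AT1-like, 269 and 330 in ciliated-like and 0 in AT2-like and club-like cells of both libraries. *Hist1h1c* had a like pattern, 197 and 230 CPM in Krt8-like, 120 and 95 in AT1-like and 90.2 and 113 in ciliated-like cells against 26.7 and 31.1 in AT2-like cells. *Hist1h4h* was at 103 and 197 CPM in Krt8-like against 7.23 and 11.5 in AT2-like cells, and *Hist3h2a* at 45.0 and 94.3 against 11 and 12.7. *Hist1h1e* differed from these, with 23.1 and 45.2 CPM in Krt8-like and 26.3 and 56.9 in AT2-like cells. Steep members stayed low in all of these classes: *Hist1h2ap* had no UMI in non-cycling WT Krt8-like cells (interval up to 4.49 CPM) and 9.25 CPM in KO.

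**Figure D4:**
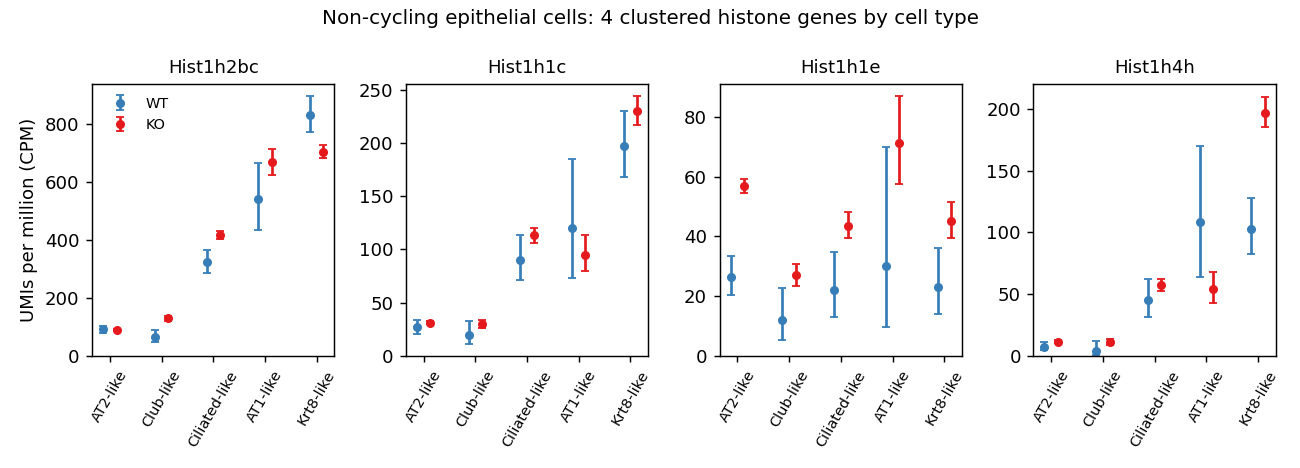
Level (CPM) of *Hist1h2bc*, *Hist1h1c*, *Hist1h1e* and *Hist1h4h* in non-cycling cells of 5 epithelial classes, WT in blue and KO in red, with 95% counting intervals. *Hist1h2bc* runs from 66.1 CPM in WT club-like to 831 CPM in WT Krt8-like cells (432 CPM without the highest cell), and *Hist1h1e* has no such rise, with 56.9 CPM in KO AT2-like and 45.2 CPM in KO Krt8-like cells.

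Ciliated-like cells stood apart in a second way. The gate took 29 KO ciliated-like cells as cycling, and their histone sum was 609 CPM, below the 820 CPM of the other ciliated-like cells. Cycling KO AT2-like cells had 2416 CPM (250 cells), Krt8-like cells 2747 (25 cells) and club-like cells 2266 (29 cells). Without ciliated-like cells the KO epithelial ratio was 2.34 in place of 2.12. Among immune cells of WT, cycling macrophage-like cells had 2281 CPM (404 cells), dendritic-like cells 2486 (170 cells) and T-like cells 3583 (109 cells), against 454, 326 and 463 in their non-cycling cells. *Hist1h2bc* was at 226 CPM in non-cycling neutrophil-like, 195 in macrophage-like and 179 in B-like cells of WT, and at 71.8 in dendritic-like and 56.9 in T-like cells, a wider range than between the cycling and non-cycling cells of either library.

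Between the libraries, non-cycling epithelial cells had nearly equal sums, 508 CPM in KO and 519 in WT (log2 KO over WT -0.03, -0.08 to 0.02). The value was 0.14 without the highest cell of each library and 0.20 with TMM scaling, and the median over all genes was -0.18. These sums pool classes in unlike shares. Krt8-like cells, the highest class, were 151 of 1155 WT and 727 of 10658 KO cells. Within each epithelial class given above the sum was higher in KO, without the highest cell 311 against 240 CPM in AT2-like and 216 against 183 in goblet-like cells. The values by type and by member pool the classes in the same way, and the part of the mix was not tested. By type, H2A was 0.41 higher in KO (0.22 to 0.60), H4 0.31 and H1 0.27, while H3 was -0.59 (-0.86 to -0.31) and H2B -0.32 (-0.40 to -0.25). Without the highest cell H2B was -0.01 (-0.09 to 0.08) and H3 -0.42 (-0.71 to -0.12). Of 50 members tested, 6 were at least 2-fold higher in KO where 2.16% of all genes were: *Hist2h2aa1* (1.43), *Hist1h2ap* (1.21, 12 WT UMIs), *Hist1h1e* (1.19) and 3 that rest on 1 WT UMI each, *Hist2h2bb*, *Hist1h2ai* and *Hist1h2br*. The non-cycling UMIs of *Hist1h2ap* were not read as expression, as given above. Another 6 were at least 2-fold lower where 8.05% of genes were: *Hist1h1b* (-1.04) and the H3 genes *Hist2h3c2* (-1.66), *Hist2h3c1* (-1.38), *Hist1h3i* (-1.24), *Hist1h3b* (-1.20) and *Hist1h3d* (-1.15), the last 2 chosen after their values were seen. The intervals of *Hist1h1b* (-2.02 to 0.09), *Hist1h3i* (-2.80 to 0.76) and *Hist1h3b* (-2.99 to 1.22) included 0, and *Hist1h1b* was at 0.55 with the gate on cells thinned to 1000 UMIs. The highest WT cell held 7 of the 15 WT UMIs of *Hist1h3d* and 8 of the 34 of *Hist2h3c1*. Without the highest cell 7 were higher and 4 lower. None of the 34 genes of the processing, chaperone and variant list was past 2-fold in either direction.

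Cycling epithelial cells had 2217 CPM in KO (379 cells) and 853 in WT (35 cells, 165 UMIs), a log2 ratio of 1.38 (1.16 to 1.61), and of 1.98 without the highest cell of each library. Of 41 members tested, 18 were at least 2-fold higher in KO where 7.65% of genes were, and none lower where 850 of 10272 genes were. Of these 18, 9 rest on 1 WT UMI each and 10 have an interval that includes 0, and *Hist1h4h* among them (1.45, -0.13 to 3.75) was at -0.23 with the gate on cells thinned to 1000 UMIs. H2A was 2.40 higher (1.90 to 2.94) and H3 2.01, whereas H2B was 0.23 (-0.19 to 0.67). *Hist1h2ap* was at 499 CPM in KO and 56.8 in WT (11 UMIs), *Hist1h4d* at 168 and 25.8 (5 UMIs) and *Hist1h1e* at 244 and 67.2 (13 UMIs). AT2-like cells were 250 of the 379 KO cells and 21 of the 35 WT cells, shares near each other in groups of unlike size. Cycling immune cells, 41 in KO and 993 in WT, had 5276 CPM in KO against 2430 in WT (1.12, 1.03 to 1.21). Of 55 members tested, 23 were at least 2-fold higher where 5.34% of genes were. At least 2-fold lower were 2, where 1188 of 10954 genes were. These rest on few KO UMIs: *Hist1h2ak* (-1.33, -6.66 to 1.19, 1 UMI) and *Hist1h3i* (-1.07, -3.36 to 0.50, 3 UMIs). In non-cycling immune cells the ratio was 0.34 (0.25 to 0.42), in non-cycling endothelial cells 0.51 (0.38 to 0.63) and in non-cycling mesenchymal cells 0.06. Median UMIs of cycling cells were 7514 in KO and 4785 in WT in the epithelial lineage, and 1422 and 5266 in the immune lineage. The gate asks for UMIs of 4 genes, so it is stricter in shallow cells, and the part of this was not tested. With the gate at 0.4% of UMIs, KO over WT in cycling immune cells was 0.92. Genotype, sort outcome, depth and library cannot be told apart with 1 library each.

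All ratios of KO over WT come from the same pair of libraries and are not independent. Over the 4 lineages and both classes they ran from 0.12 to 3.13 for *Hist1h2ap*, from 0.09 to 2.63 for *Hist1h1e* and from 0.13 to 2.70 for *Hist1h4d*, and the interval of the lowest of each included 0. They ran from -0.37 to 1.54 for *Hist1h2bc* and from -1.46 to 1.66 for *Hist1h2ae*. Between *Hist1h2ap* and *Hist1h2ae* the balance differed by library, a pattern noticed in these values and not set beforehand. In cycling immune cells there were 0.774 *Hist1h2ap* UMIs per *Hist1h2ae* UMI in WT (0.726 to 0.825) and 1.48 in KO (1.22 to 1.79). In cycling endothelial cells the values were 0.873 and 1.55, in cycling mesenchymal cells 0.755 and 4.03, and in cycling epithelial cells 0.917 (11 and 12 UMIs) and 2.54. In non-cycling cells, where *Hist1h2ap* UMIs were not read as expression, they were 0.462 and 1.11 in epithelial, 0.939 and 1.63 in immune, 0.588 and 1.75 in mesenchymal and 0.617 and 1 in endothelial cells, the last KO value from 9 and 9 UMIs (0.352 to 2.84). The intervals of WT and KO overlapped in both endothelial classes. The KO value of 4.03 in cycling mesenchymal cells (2.72 to 6.14) came from 129 and 32 UMIs. That class has 29 cells, and 1 of them held 26.8% of its histone UMIs. *Hist1h2ap* shares its 3′ windows with other members, as given above, and whether reads of such copies were divided alike in the 2 libraries was not tested.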

How the data were processed

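For either library the authors deposited a matrix of raw counts, in which each value is the whole number of UMIs of a gene in a barcode, with no normalization. Per the labels they were made with STAR and Cell Ranger 3.1.0 on GRCm38 (mm10), while the header of the deposited matrix names Cell Ranger 5.0.0. Whether reads in introns or reads shared by copies were counted was not given in the sources used here. No column was left unmapped. The totals were 98171818 UMIs on 30669 barcodes in WT and 111267567 on 17172 in KO.

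Barcodes with over 200 and under 5000 genes and under 20% mitochondrial UMIs were kept. Kept cells of both libraries were clustered together by the Leiden method of igraph on a graph of shared neighbors. Settings were 10000 UMIs per cell, 2000 variable genes without histone, cell cycle, supply genes and *Pclaf*, 10 components, 20 neighbors and resolution 0.8. UMIs were summed per class and divided by the class total (CPM). Log2 ratios have exact conditional intervals for 2 Poisson counts, shares have Clopper-Pearson intervals, and 0 counts a floor of 3 counts. A gene was called past 2-fold with at least 20 UMIs over the compared cells. No p-value was computed, since each group is 1 library. TMM factors came from edgeR 4.0.16 in R 4.3.3. Other steps used Python 3.11.15, numpy 2.4.6, scipy 1.17.1, pandas 2.3.3 and matplotlib 3.10.9. The code for ratios and intervals was tested on simulated data.

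The members, gene lists and the rule for named genes were chosen with earlier results of these data known. The rule names the 10 members with the most UMIs, the 2 per type with the most UMIs in cycling cells, and members past 2-fold against the direction of the sum. The scoring that names clusters was revised after clusters were seen, and so was the direction of the call in S-leaning cells. Doublets were not removed: the automatic threshold of Scrublet, run in scanpy 1.11.5, called 0 cells, and 261 WT and 287 KO cells had a score of at least 0.25. Of the cells with no lineage named, 2.45% in WT and 30.3% in KO had such a score. Transcripts came from the GENCODE annotation of GRCm38 and promoters from RefSeq.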

Additional observations from a re-analysis of the deposited data

How the results depend on the processing

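No paired analysis was possible because each group has 1 library, and no library could be left out. Over 277 recalculations of sums and counts, 216 stayed within the counting interval (counts within 1.5-fold), 61 moved and 0 reversed, and of 777 for single members 670 stayed, 105 moved and 2 reversed. The cause was not tested for any of them. A log2 ratio counts as reversed only if its sign changed and it was at least 2-fold as reported, and counts of members could not reverse. Smaller ratios that changed sign are among those that stayed or moved. For *Hist1h2bc*, KO over WT in cycling epithelial cells was -0.35 as reported and ran from -1.35 to 1.98. The cycling ratio stayed above 0 in each recalculation for the 4 groups that carry that comparison, the S-leaning ratio came nearest to 0 at -0.02, and KO over WT in non-cycling epithelial cells, whose interval includes 0 as reported, took either sign. Cycling WT epithelial cells are few, with 165 histone UMIs in 35 cells.

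With the gate at 0.1% the cycling ratios (log2) were 1.75 in KO epithelial, 1.58 in WT endothelial, 1.85 in WT immune and 2.07 in WT mesenchymal cells, and the S-leaning ratios -1.08, -2.10 and -1.02 in the first 3. With the gate at 0.4% they were 2.70, 2.73, 2.57 and 2.67, the S-leaning ratios -0.02, -1.19 and -0.02, and KO over WT in cycling immune cells 0.92. With the gate on cells thinned to 1000 UMIs they were 1.67, 1.36, 1.84 and 1.72, and the S-leaning ratios -1.16, -2.16 and -1.0. In that setting KO over WT was 0.55 for *Hist1h1b* in non-cycling epithelial cells (-1.04 as reported) and -0.23 for *Hist1h4h* in cycling ones (1.45 as reported), the 2 reversals.

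With the limits of 200 and 5000 read as UMIs, members at least 2-fold higher fell to 19 in KO epithelial, 13 in WT endothelial, 27 in WT immune and 9 in WT mesenchymal cells. Fewer cells were left, and the members tested and the share of all genes were not computed in that setting. Cycling ratios were 1.72 in WT endothelial, 1.58 in WT immune and 2.21 in WT mesenchymal cells, and S-leaning ratios -0.31 in KO epithelial, -2.10 in WT endothelial and -0.91 in WT immune cells. KO over WT was then 1.82 in cycling and 0.18 in non-cycling epithelial cells and 1.67 and 0.49 in immune cells. Without an upper limit on genes the KO epithelial ratio was 2.05 and the S-leaning ratios -0.63 in KO epithelial and -0.49 in WT immune cells. With non-cycling cells under 0.05%, cycling ratios were 2.27 in KO epithelial and 2.28 in WT immune cells, and KO over WT 0.19 in non-cycling epithelial and 0.23 in non-cycling immune cells.

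With TMM scaling KO over WT was 1.64 in cycling and 0.20 in non-cycling epithelial cells and 0.43 in non-cycling immune cells. With CPM without mitochondrial and ribosomal genes the WT immune ratio was 2.18. With 1 in 6 KO cells clustered, KO over WT was 1.00 in cycling and 0.23 in non-cycling immune cells. Cycling immune cells had 1.00 with all variable genes and 1.02 at resolution 0.4. The WT endothelial S-leaning ratio was -2.10 with all variable genes and -1.58 at resolution 1.2, and the WT mesenchymal ratio 2.50 with 20 components.

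Chosen after seeing the data, leaving out the cell with the most histone UMIs of each lineage, class and library gave KO over WT of 1.98 in cycling and 0.14 in non-cycling epithelial cells and 1.00 in cycling immune cells, and a WT mesenchymal ratio of 2.26. Leaving out ciliated-like cells gave 2.34 for the KO epithelial ratio, -1.08 for its S-leaning ratio and -0.11 for KO over WT in non-cycling epithelial cells. Leaving out cells with a Scrublet score of at least 0.25 moved no sum or count beyond its interval, and the planned automatic Scrublet threshold could not be used because it called 0 cells.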
